A study of Mus musculus with 4 samples.

Results

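Places where eIF4A2 peaks face each other on opposite strands are described here. A peak is an interval of RNA recovered more often in the eIF4A2 IP than in the input, and a peak entered the set if a peak on the other strand of the same chromosome lay no more than 1000 bases away, measured between the nearest edges. The rule used positions and strands only and treated both sides alike, so it fixed neither the orientation of a pair nor its fold. It found 823 of the 47777 deposited peaks (1.72%, Wilson 95% interval 1.61 to 1.84%), 420 of them plus and 403 minus. All Wilson intervals given below cover counting error over peaks or pairs only.

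The libraries came from J1 mouse embryonic stem cells of the 129S4/SvJae strain, grown feeder-free on gelatin with serum and leukemia inhibitory factor and crosslinked with ultraviolet light at 254 nm. One group was the IP, made with an antibody to eIF4A2 (2 libraries), and the other the input, without that antibody (2 libraries). No genotype or drug treatment separates the groups, and a single cell line was used. The deposited list gives every peak 1 fold, its enrichment in the IP over the input, and none for each library, so neither the spread between replicates nor the depth is known, no value per library can be shown and no difference between sets of peaks was tested.

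eIF4A2 is a DEAD-box RNA helicase and a paralog of eIF4A1, the helicase that unwinds mRNA 5′ leaders during translation initiation, and it has also been linked to the CCR4-NOT deadenylase complex. Because eCLIP reads keep their strand, peaks on opposite strands are taken here to belong to different RNAs. Reads given the wrong strand could not be looked for, since the list holds no reads. Mammalian genes often lie head to head, with transcription leaving a shared promoter region in both directions, and many promoters also give short-lived antisense RNAs upstream of the gene. Genes that lie tail to tail end near each other, and their 3′ ends may overlap. A pair of peaks is called divergent here if the minus-strand peak lies to the left of the plus-strand peak, the arrangement of RNAs that start back to back. It is called convergent if the plus-strand peak lies to the left, the arrangement of RNAs that run towards each other. Positions are in mm9 and count from 1. The genes under the peaks were not analysed here, since no mm9 annotation was at hand, and for the same reason no sequences are printed.

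Opposite-strand peaks lay mostly back to back. The 823 peaks formed 612 combinations of a plus and a minus peak within the limit, of which 540 were divergent (88.2%, Wilson 95% interval 85.4 to 90.6%), 64 were convergent (10.5%) and 8 overlapped. Many peaks had several partners, so pairs in which each peak was the nearest opposite-strand peak of the other were used for the remaining description. There were 267 such pairs, made of 534 peaks, and the other 289 peaks had a partner that lay closer to another peak. Of the 267 pairs, 227 were divergent (85%, Wilson 95% interval 80.2 to 88.8%), 32 were convergent (12%, 8.62 to 16.4%) and 8 overlapped (3%, 1.53 to 5.8%). Divergent pairs were thus 7.09 times as many as convergent pairs. Most peaks took part in 1 arrangement: 710 had divergent partners only, 79 convergent partners only and 7 overlapping partners only, and 27 had partners of more than 1 kind.

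The excess of divergent pairs depended on the gap. Within the limit it was smallest among the closest combinations, with 11 divergent and 5 convergent at gaps up to 100 bases. At gaps of 401 to 500 bases there were 88 divergent and 11 convergent combinations, the highest divergent number of any 100-base interval up to the limit, and at 501 to 600 bases there were 74 and 4. From 701 to 1000 bases the divergent number stayed at 56 to 66 in every 100 bases, against 5 to 9 convergent. Beyond the limit that chose the peaks, gaps of 1001 to 2000 bases still held 407 divergent against 104 convergent combinations (79.6% divergent, Wilson 95% interval 75.9 to 82.9%). The arrangements were about equally frequent at 3001 to 4000 bases, with 222 divergent and 212 convergent. At larger gaps the order was turned, and at 9001 to 10000 bases 269 combinations were divergent and 427 convergent (38.6% divergent, 35.1 to 42.3%).

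**Figure D1:**
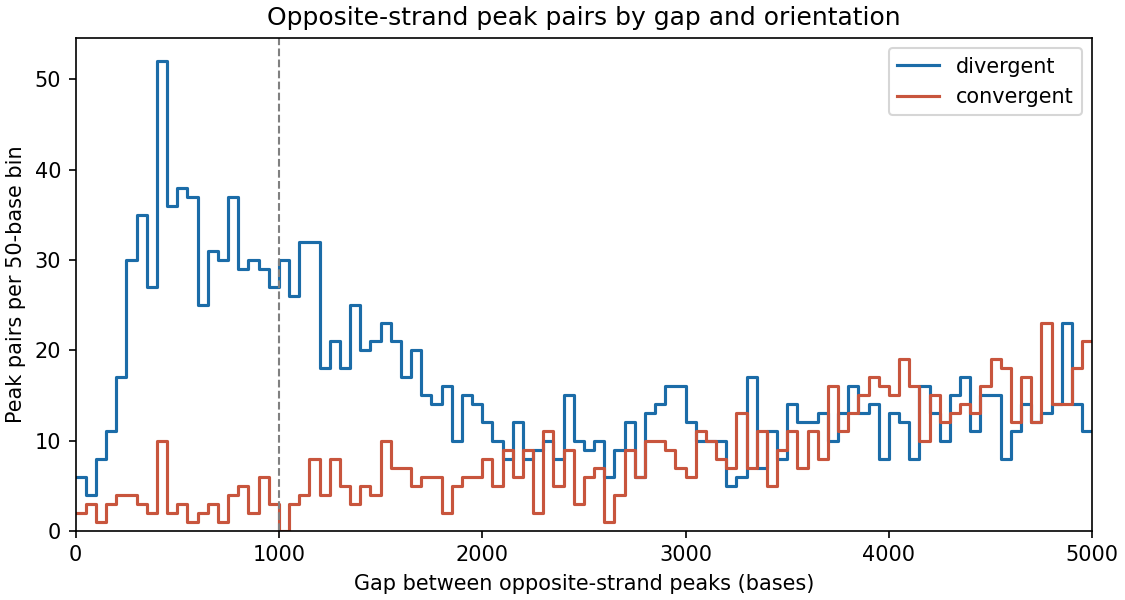
Number of opposite-strand peak combinations (vertical axis, per 50-base bin) against the gap between their nearest edges (horizontal axis, bases), for divergent (blue) and convergent (red) arrangements; the dashed line is the 1000-base limit that chose the peaks. The divergent count is highest at gaps of 400 to 450 bases, with 52 combinations against 10 convergent ones, and both curves meet between 2000 and 4000 bases.

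Within the pairs of nearest peaks the median gap was 442 bases for divergent pairs (interquartile range 302 to 696, lowest 7, highest 999). For convergent pairs it was 422.5 bases (226 to 785.5, lowest 13, highest 978). Gaps of 301 to 700 bases held 114 of the 227 divergent pairs (50.2%, Wilson 95% interval 43.8 to 56.7%) and 10 of the 32 convergent pairs (31.2%, 18 to 48.6%). Only 56 divergent pairs were closer than that. The medians hardly differed, while the divergent gaps were gathered around theirs and the convergent gaps were spread over the range. These intervals overlapped, and with 32 convergent pairs the difference in spread rests on few pairs.

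The last combinations inside the limit of 1000 bases were a divergent one on chromosome 17 with a gap of 1000 bases (log2 fold 2.51 for the minus and 2.41 for the plus peak) and a divergent one on chromosome 5 with a gap of 999 bases (1.36 and 1.94). The first outside were divergent combinations on chromosome 11 at 1002 bases (1.62 and 1.24) and on chromosome 6 at 1004 bases (1.24 and 1.01).

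The 823 peaks lay in 264 loci, a locus being a chain of these peaks in which each starts within 1000 bases of those before it on either strand. Loci were compact, with a median span of 802 bases (interquartile range 562.75 to 980.5, lowest 55, highest 1868). In 223 loci every minus peak lay to the left of every plus peak (84.5%, Wilson 95% interval 79.6 to 88.3%). In 24 loci all plus peaks came first (9.09%), and in 17 the strands were interleaved or overlapped (6.44%). A single peak on each strand made up 111 loci. Another 117 had 1 peak on one strand and several on the other, and 36 had at least 2 on both. Most loci were therefore either a lone pair or lopsided.

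The 5 loci with the most of these peaks show the range of layouts. The first, on chromosome 6 at 113026340 to 113027701, held 6 minus peaks with log2 folds of 1.38 to 2.24, followed after 216 bases by 3 plus peaks of 1.36, 1.84 and 1.40. Its strands were cleanly divided, and its minus peaks had the higher median (1.87 against 1.40). A locus on chromosome 8 at 75019776 to 75021440 held 7 plus peaks of 1.43 to 2.90 with a single minus peak of 1.41 among them. A gap of 16 bases separated that minus peak from a plus peak of 1.56 on its left, and another plus peak followed on its right. On chromosome 17 at 13897005 to 13898640, 4 plus and 3 minus peaks alternated along 1636 bases. They included a minus peak of 3.94 (15.4-fold) at 13898229 to 13898273, whose first 21 bases were shared with a plus peak of 1.68.

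Another locus on chromosome 8, at 23587014 to 23587621, held 1 minus peak of 1.09 and, after 184 bases, 6 plus peaks of 1.34 to 1.97, of which the first 4 touched end to end. The locus on chromosome 10 at 39451523 to 39452575 held 2 minus peaks, both with a log2 fold of 1.24, and after 317 bases 5 plus peaks of 1.01 to 2.70. In this locus the highest plus peak was the one farthest from the minus peaks. Of these 5 loci, those on chromosomes 6 and 10 and the second on chromosome 8 were divergent, and the others were interleaved.

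**Figure D2:**
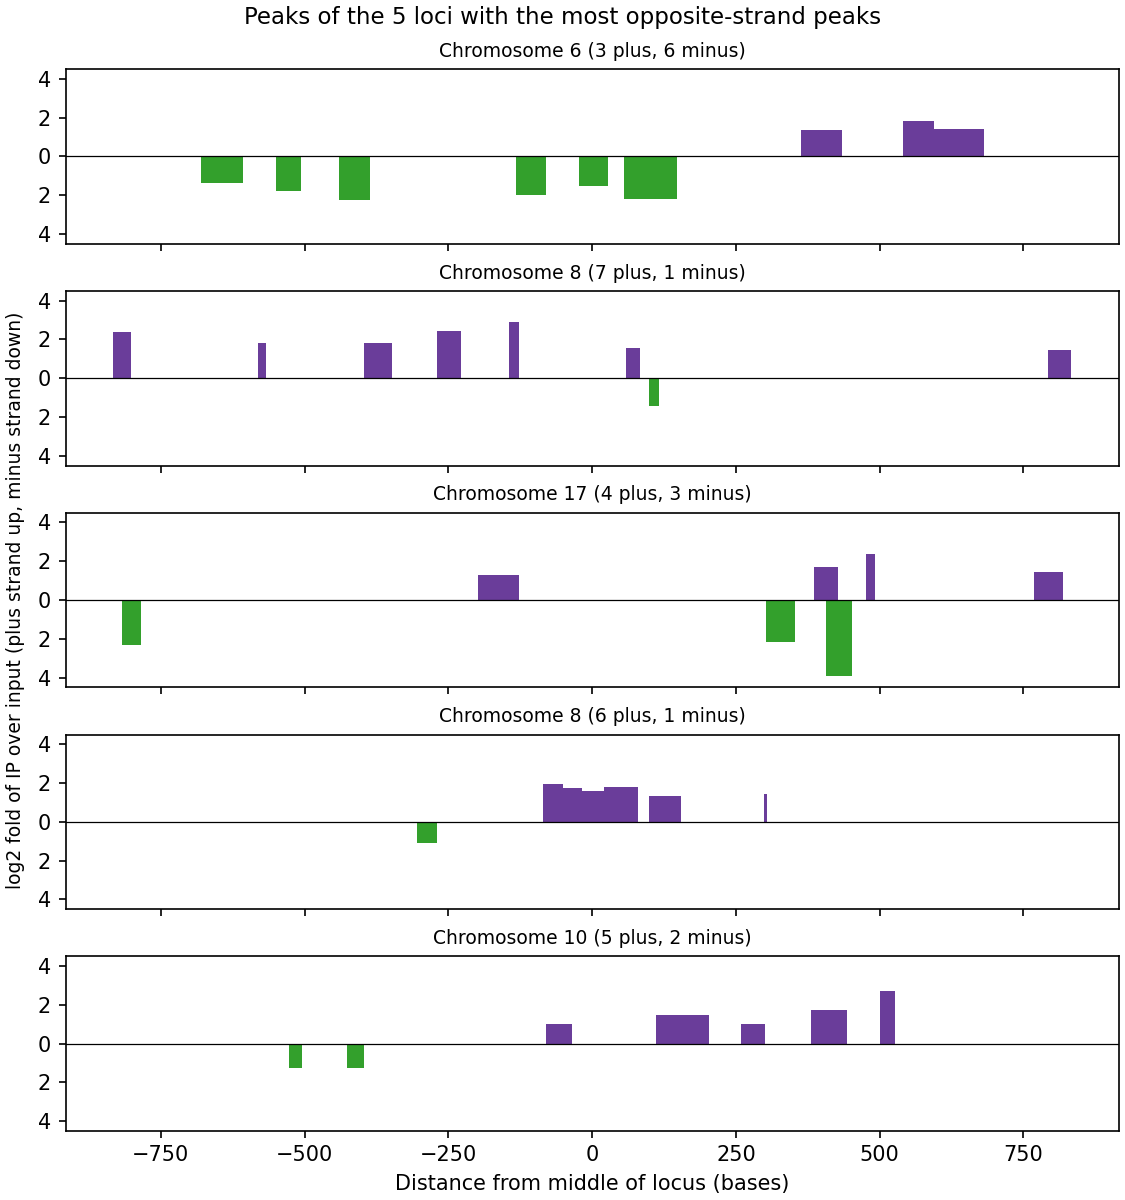
Peaks of the 5 loci with the most opposite-strand peaks, against the distance from the middle of the locus (bases); bar width is the peak width, and bar height is the authors' log2 fold of IP over input, upward in purple for plus and downward in green for minus. Minus peaks lie left of plus peaks in the loci of chromosome 6, chromosome 10 and the chromosome 8 locus with 6 plus peaks, and the strands are interleaved in the others.

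The fold was moderate in these peaks. The median log2 fold was 1.73, or 3.31-fold (interquartile range 1.38 to 2.11, lowest 1.01, highest 4.41), against 1.65, or 3.15-fold (1.29 to 2.07), in the 46954 peaks outside the set. A log2 fold of at least 2, which is 4-fold, was reached by 260 of the 823 (31.6%, Wilson 95% interval 28.5 to 34.8%), beside 28.3% of the whole list. A log2 fold of at least 3, which is 8-fold, was reached by 28 (3.4%, 2.36 to 4.87%), beside 4.03% of the whole list. Both shares lie near the background of the list. The peaks of divergent, convergent and overlapping pairs had medians of 1.73, 1.64 and 1.77, and the interquartile range of divergent pairs (1.37 to 2.11) covered those of the others in large part.

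The folds of the peaks of a pair hardly went together. In divergent pairs the median was 1.73 on both strands, and the plus peak was the higher in 112 pairs, the minus peak in 110, and 5 were equal. Across the 227 divergent pairs Spearman's rho between the folds was 0.07 and Pearson's r was 0.02, and across the 32 convergent pairs they were 0.04 and 0.05. Neighbouring peaks on the same strand with gaps up to 1000 bases, when both belonged to the 823, had a rho of 0.27 (293 neighbours). In the whole list such neighbours had 0.32 (16182). Most of those 293 were closer than opposite-strand partners, and 230 of them lay within 200 bases. At gaps of 201 to 1000 bases the rho was 0.07 on opposite strands (229 pairs), 0.12 on the same strand among the 823 (63) and 0.25 on the same strand in the whole list (6486). The median absolute difference at these gaps was 0.49, 0.46 and 0.42 on the log2 scale. Pairs within a locus share libraries and lie on common stretches, and a weak rho over 63 neighbours separates nothing, so these values are a description.

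In convergent pairs the minus peak was the higher in 21, the plus peak in 10, and 1 was equal, with medians of 1.74 on the minus and 1.56 on the plus strand. The share with a higher plus peak was 31.2% (Wilson 95% interval 18 to 48.6%). In overlapping pairs the plus peak was the higher in 6 of 8. Both peaks reached a log2 fold of 2 in 24 divergent pairs, 1 peak did in 95, and neither did in 108. For convergent pairs the counts were 4, 10 and 18. Taken singly, 31.5% of peaks in divergent and 28.1% in convergent pairs reached that fold, near the 28.3% of the whole list. In none of the 267 pairs did both peaks reach a log2 fold of 3, while 1 peak did in 20 divergent, 3 convergent and 3 overlapping pairs. Beside the 4.03% of all peaks beyond that limit, pairs with both would be few in any case.

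**Figure D3:**
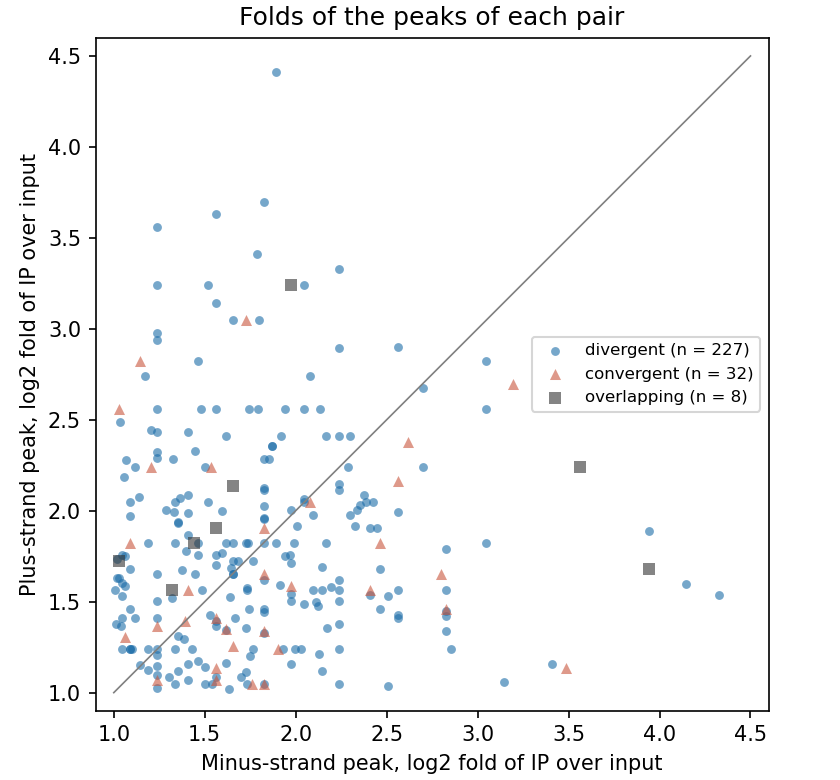
Log2 fold of IP over input of the plus-strand peak (vertical axis) against that of the minus-strand peak (horizontal axis) for the 227 divergent (blue circles), 32 convergent (red triangles) and 8 overlapping (black squares) pairs; the line marks equal folds. Points spread evenly on both sides of the line in divergent pairs, and the corner above 3 on both axes is empty.

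The divergent pairs strong on both strands, taken as those with the highest value of the lower fold, lay on 5 chromosomes. On chromosome 16 a minus peak at 20620374 to 20620397 had a log2 fold of 3.05 (8.27-fold) and its plus partner at 20620979 to 20620992 had 2.82 (7.08-fold). On chromosome 3 a minus peak at 65332098 to 65332145 with 2.70 faced a plus peak at 65332403 to 65332437 with 2.67, the first of a chain of 7 plus peaks. On chromosome 19 a minus peak at 6418428 to 6418475 had 3.05 and its plus partner at 6418843 to 6418881 had 2.56. The chromosome 7 pair, at 142128670 to 142128698 and 142129295 to 142129338, had 2.56 on the minus and 2.90 on the plus strand. The fifth pair lay on chromosome 17 with 2.30 on the minus strand at 25969829 to 25969843 and 2.41 on the plus strand at 25970770 to 25970812. With same-strand peaks joined at up to 10000 bases, only the chromosome 3 plus peak was the 5′-most plus peak of its chain. From the 5′ end, those on chromosomes 16, 19, 7 and 17 were number 2 of 4, 6 of 6, 2 of 2 and 8 of 9. The minus peaks of the 5 pairs were each 5′-most or alone. The strands of these 5 pairs differed by 0.03 to 0.49 on the log2 scale, a likeness that choosing by the lower fold favours.

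The most unequal divergent pairs contained the 3 highest folds of the set. On chromosome 6 a plus peak at 87931255 to 87931295 had a log2 fold of 4.41 (21.3-fold), and the minus peak 263 bases away had 1.89 (3.71-fold). A minus peak on chromosome 11 at 87861122 to 87861173 had 4.33 (20.1-fold), and the plus peak only 30 bases away had 1.54 (2.9-fold). On chromosome 2 a minus peak at 153171219 to 153171273 had 4.15 (17.7-fold), and its plus partner 414 bases away had 1.60 (3.03-fold). The higher peak was thus 5.73 to 6.92 times its partner. In each of the 3 pairs the peak on the other strand stayed below 4-fold. Choosing by the difference favours a low partner, and only 28.3% of the whole list reached 4-fold.

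The closest divergent pairs had moderate folds, except for that on chromosome 11 described above. On chromosome 16 peaks at 93792722 to 93792757 and 93792765 to 93792805 were separated by 7 bases and both had a log2 fold of 1.24. On chromosome 1 peaks at 193731310 to 193731331 and 193731380 to 193731421, with 48 bases between them, had 2.56 on the minus and 1.41 on the plus strand. The mitochondrial chromosome, whose strands are both transcribed over nearly their whole length, held 1 pair, at 3792 to 3814 on the minus and 3865 to 3899 on the plus strand with log2 folds of 1.64 and 1.52. The fifth pair, on chromosome 4 at 122804904 to 122804991 with a gap of 74 bases, had 1.62 and 1.82, but its minus peak was 2 bases wide and its plus peak 12.

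Convergent pairs were fewer and of several kinds. The strongest on both strands lay on chromosome 8, with a plus peak at 125791921 to 125791946 of log2 fold 2.70 and a minus peak at 125792852 to 125792892 of 3.19. Each was the 3′-most peak of its chain, a chain being peaks of one strand joined at up to 10000 bases, here 4 plus and 11 minus peaks. On chromosome 17 a plus peak at 25033751 to 25033787 had 2.38 and a minus peak at 25034539 to 25034583 had 2.62. The pair on chromosome 19 at 6413801 to 6413846 (plus, 2.17) and 6413934 to 6413965 (minus, 2.56) was both among the strongest and among the closest, with a gap of 87 bases. A second pair on chromosome 19 at 6984718 to 6985627 had 2.05 on the plus and 2.08 on the minus strand. The fifth, on chromosome 6 at 108609372 to 108609706, had 1.82 and 2.46. Not all of these peaks were 3′-most. From the 5′ end, the chromosome 17 plus peak was number 5 of 5 and its minus partner 17 of 20. In the closer chromosome 19 pair the plus peak was number 4 of 6 and the minus peak 2 of 3. On chromosome 6 they were number 1 of 2 and 3 of 5. In the second chromosome 19 pair the plus peak stood alone and the minus peak was the last of 4.

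The closest convergent pair, on chromosome 1 at 91827104 to 91827186, was separated by 13 bases and was also among the 3 most unequal ones. Its plus peak had a log2 fold of 2.56 and its minus peak 1.03. The pair with 16 bases between its peaks was that of the interleaved chromosome 8 locus. Those on chromosome 10 at 66559380 to 66559562 (gap 89 bases) and on chromosome 1 at 179717227 to 179717356 (gap 97 bases) had 1.35 and 1.82 on the plus and 1.62 and 1.09 on the minus strand. The most unequal convergent pair lay on chromosome 5, where a minus peak of 3.49 at 31556334 to 31556338 faced a plus peak of 1.13 at 31555502 to 31555507. These peaks were 5 and 6 bases wide, so a high fold here belonged to a very short interval. On chromosome 14 a plus peak at 22667060 to 22667113 had 2.82 and its minus partner at 22667527 to 22667540 had 1.15.

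The 8 overlapping pairs shared from 2 to 21 bases, in some of them the whole of the narrower peak. The highest single peak among them, with a log2 fold of 3.94, was the minus peak of the chromosome 17 pair described above, whose plus peak had 1.68. On chromosome 1 a minus peak at 157883010 to 157883040 (log2 fold 3.56) contained the whole of a plus peak at 157883023 to 157883037 with 2.24. On chromosome 3 a plus peak at 89141790 to 89141824 with 3.24 overlapped a minus peak at 89141812 to 89141854 with 1.98 by 13 bases. In these 3 pairs the strands differed by 1.26 to 2.26 on the log2 scale, although the intervals shared bases.

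The other 5 overlapping pairs were weaker. On chromosome 5 a plus peak at 137463273 to 137463324 had 2.14 and contained a minus peak of 2 bases with 1.65. The pairs on chromosome 7 at 20506322 to 20506400 and on chromosome 16 at 4641405 to 4641440 shared 10 bases each, with 1.73 and 1.56 on the plus and 1.03 and 1.32 on the minus strand. The 2 pairs on chromosome 8, at 26879843 to 26879897 and 72817211 to 72817236, had 1.82 and 1.90 on the plus and 1.44 and 1.56 on the minus strand. By their centres, 3 of the 8 pairs had the minus peak on the left and 5 the plus peak, unlike the pairs that did not overlap, although 8 pairs are too few to give an order.

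The surroundings of the pairs, beyond the distance used to choose them, followed their orientation. At 1001 to 10000 bases to the right of the middle of a divergent pair there were 184 plus and 61 minus peaks (75.1% plus, Wilson 95% interval 69.3 to 80.1%), and on the left 210 minus and 59 plus peaks (78.1% minus, 72.7 to 82.6%). For divergent pairs this held mainly for the nearer part. At 1001 to 5000 bases 91.7% of peaks on the right were plus (99 of 108, 84.9 to 95.6%) and 94.7% of those on the left minus (124 of 131, 89.4 to 97.4%). At 5001 to 10000 bases the shares were 62% (85 plus and 52 minus, 53.7 to 69.7%) and 62.3% (86 minus and 52 plus, 54 to 70.0%), and in some of the outer 500-base intervals the order was turned. Around convergent pairs the order of the strands was reversed. There were 83 plus and 20 minus peaks on the left (80.6% plus, 71.9 to 87.1%). On the right there were 10 plus and 63 minus peaks (86.3% minus, 76.6 to 92.4%). Unlike in divergent pairs, these shares did not fall with distance. On the left 80% were plus at 1001 to 5000 bases and 81.4% at 5001 to 10000 bases (35 of 43, 67.4 to 90.3%). On the right 81.8% and 90% were minus (27 of 33 and 36 of 40). A peak near several pairs counts once for each, so the intervals are too narrow.

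**Figure D4:**
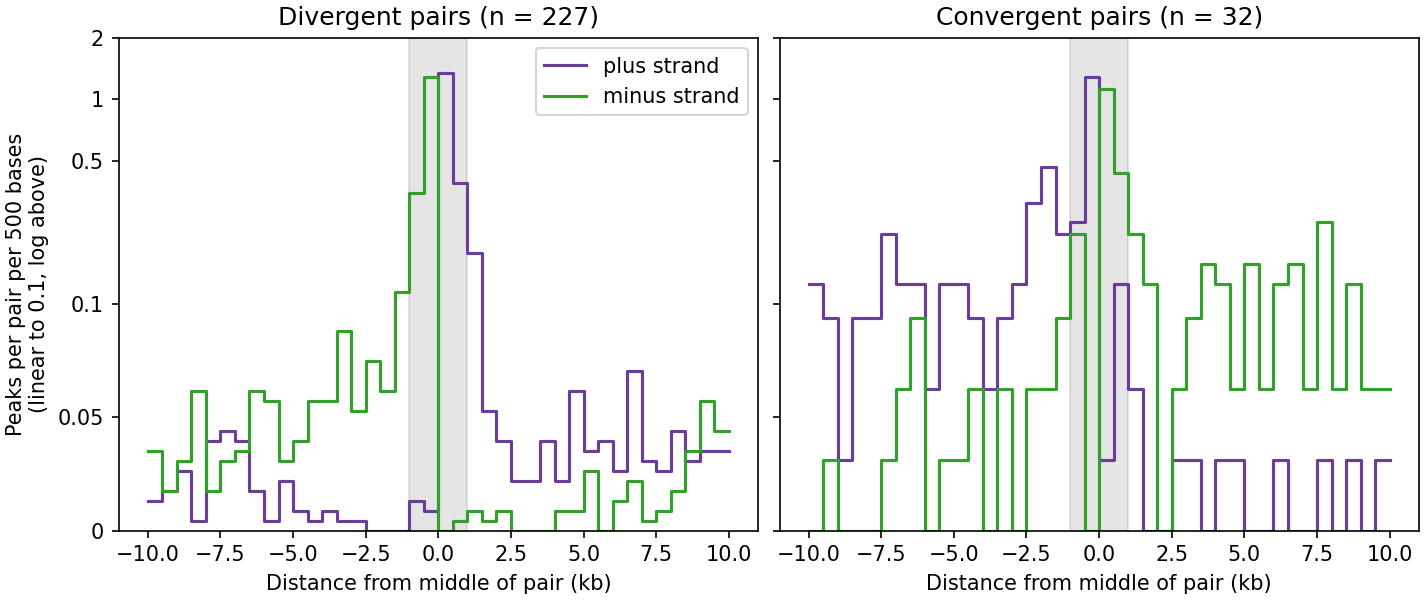
Peaks per pair in 500-base bins (vertical axis, linear to 0.1 and logarithmic above) against the distance from the middle of the pair (horizontal axis, kb), for plus (purple) and minus (green) peaks around 227 divergent and 32 convergent pairs. Grey marks the 1000 bases on either side, where the choice of pairs sets the pattern. In pairs with wide gaps that choice also bears on the bins just beyond. Between 1 and 5 kb plus peaks prevail right of divergent pairs (99 against 9 minus) and minus peaks left of them (124 against 7 plus), with the reverse around convergent pairs; farther out the strands of divergent pairs mix and in some bins change order.

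Few peaks of divergent pairs had another peak upstream on their own strand. Upstream peaks within 1000 bases are nearly barred by the choice of nearest partners, so only peaks without one were compared at 1001 to 10000 bases. In pairs with wide gaps that choice also bars some upstream peaks beyond 1000 bases, which can lower the upstream share. A same-strand peak lay there for 35 of 451 peaks of divergent pairs (7.76%, Wilson 95% interval 5.63 to 10.6%), against 44.2% of such peaks outside the set. Downstream, the corresponding shares were 92 of 260 (35.4%, 29.8 to 41.4%) and 43.8%. On the 3′ side a same-strand peak lay within 1000 bases for 194 of the 454 (42.7%, 38.3 to 47.3%), against 33.7% outside the set, and within 10000 bases for 286 (63%, 58.5 to 67.3%), against 62.7%. Peaks of divergent pairs thus had a follower about as often as other peaks but rarely a forerunner. In chains joined at 10000 bases, 259 of the 454 were the 5′-most of at least 2 peaks (57%), 157 stood alone (34.6%) and 38 lay further along (8.37%). Of all peaks in the list, 18.5% were 5′-most of a chain and 18.8% stood alone, a comparison in which the barred upstream peaks also count.

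The chains behind divergent pairs were often one-sided. Counting each chain once, the 452 chains with a peak of a divergent pair had a median of 2 peaks (interquartile range 1 to 4, highest 53), and the other 17345 chains of the list had a median of 1 (1 to 3, highest 175). Chains of a single peak made up 34.7% of the former (157, Wilson 95% interval 30.5 to 39.2%) and 50.8% of the latter. A chain with more peaks has more chances to hold a peak of a divergent pair, so this choice itself can raise the size of the former. In 103 of the 227 pairs a lone peak faced a chain, in 97 both peaks belonged to chains, and in 27 both stood alone. Where the chains differed in size, the peak on the longer one had a median log2 fold of 1.75 and that on the shorter one 1.57 (173 pairs). The former was the higher in 96 pairs (55.5%, Wilson 95% interval 48 to 62.7%), the lower in 75 and equal in 2. The interval includes 50% but covers counting error over pairs only, and a difference between the longer and the shorter side was not tested.

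Convergent pairs lay at the 3′ ends of their chains less uniformly. Both peaks were the 3′-most of their chain, or alone, in 17 of the 32 pairs, 1 peak was in 11, and neither was in 4. On chromosome 5 at 139862506 to 139862952 the minus peak was the last of a chain of 53 and the plus peak the last of 3. On chromosome 2 at 168592219 to 168592449, by contrast, a lone plus peak of 2.24 faced the second of a chain of 20 minus peaks. These pairs were chosen after their values were seen. Of the 64 peaks of convergent pairs, 26 had a same-strand peak within 1000 bases upstream (40.6%, Wilson 95% interval 29.5 to 52.9%), against 33.8% outside the set. Of convergent peaks with none closer, 16 of 38 had an upstream peak at 1001 to 10000 bases (42.1%, 27.9 to 57.8%) and 11 of 56 a downstream one (19.6%, 11.3 to 31.8%), against 44.2% and 43.8% outside the set. Here the choice of nearest partners can lower the downstream share at wide gaps.

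Divergent pairs held the wider peaks. The median width was 43 bases in divergent pairs (interquartile range 27 to 60, highest 174), 30 in convergent pairs (18 to 41, highest 70), 33 in overlapping pairs and 32 outside the set (19 to 46). Peaks under 20 bases made up 13.7% of those in divergent pairs (62 of 454, Wilson 95% interval 10.8 to 17.1%), 31.2% of those in convergent pairs (20 of 64, 21.2 to 43.4%) and 25.2% of those outside the set. The difference was also found at the same position in a chain. Among 5′-most peaks the median was 45 bases in divergent pairs (259 peaks) and 34 outside the set (8543), and among peaks alone in their chain it was 40 (157) and 29 (8798). In the same classes the median log2 folds were 1.73 and 1.65 for 5′-most peaks and 1.67 and 1.70 for lone peaks, so the wider peaks were not the higher in both classes.

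**Figure D5:**
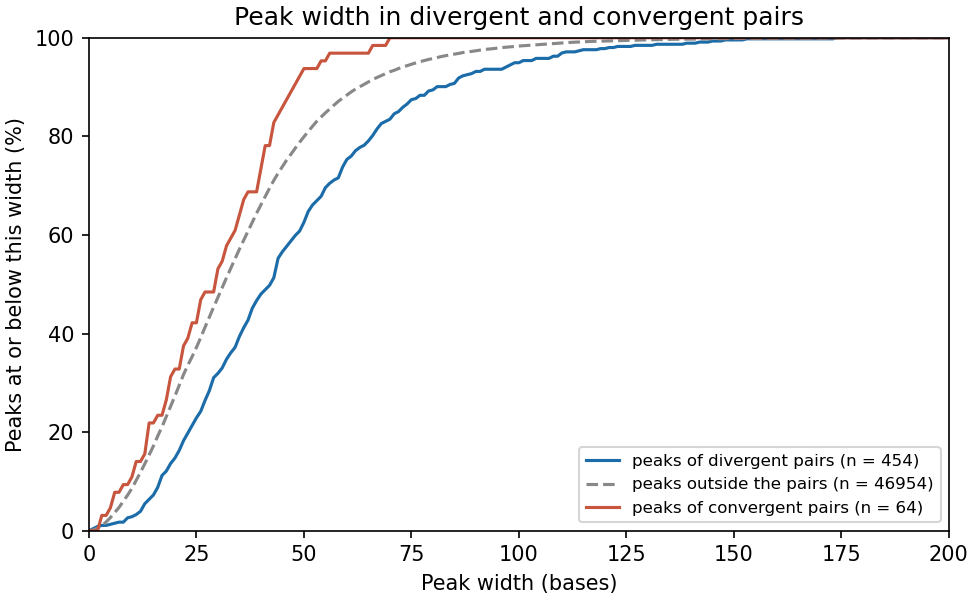
Percentage of peaks at or below a given width (vertical axis) against peak width (horizontal axis, bases, shown to 200), for 454 peaks of divergent pairs (blue), 64 of convergent pairs (red) and 46954 outside the set (grey, dashed). The blue curve lies to the right of the others, with a median of 43 bases against 30 and 32.

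Folds of the set were less often simple ratios than those of other peaks. The folds in the list recur because many equal a whole number times one constant, 0.24 on the log2 scale. Such values were found for 177 of the 823 peaks (21.5%, Wilson 95% interval 18.8 to 24.4%, tolerance 1e-06) and 27.9% of the peaks outside the set. The ratio of 2 to 1 was found in 6.44% of the 823 and 9% of the list, and that of 3 to 1 in 4.98% and 8.12%. These labels assume that the most frequent fold of the list (log2 fold 1.24, 4301 peaks) is a ratio of 2 to 1. The constant and the other ratios follow from that assumption, which could not be checked. Among the 28 peaks of the set at 8-fold or more, 21 (75%, 56.6 to 87.3%) were at whole-number ratios, including the 3 highest. The share among other peaks at 8-fold or more was not counted, so this value has no background beside it. The list gives no read counts, so the reads behind these folds are unknown.

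Pairs occurred on 21 of the 22 chromosomes in the list, and divergent pairs outnumbered convergent ones on each of the 21. Chromosome Y, with 6 peaks, had none. The share of a chromosome's peaks that belonged to the set was highest on chromosome 13 (45 of 1619, 2.78%, Wilson 95% interval 2.08 to 3.7%) and chromosome 8 (104 of 3796, 2.74%, 2.27 to 3.31%), leaving out the mitochondrial chromosome with 2 of 7. It was lowest on chromosome X (4 of 986, 0.406%, 0.158 to 1.04%), chromosome 15 (13 of 2211, 0.588%) and chromosome 9 (15 of 2394, 0.627%). Chromosome 13 held 13 divergent pairs and no other, and chromosomes 4, 12, 15, X and the mitochondrial one likewise held divergent pairs only. Convergent pairs occurred on 14 chromosomes. Chromosome 8 held 19 divergent, 9 convergent and 2 overlapping pairs, more convergent pairs than any other chromosome. These chromosomes were chosen after their values were seen.

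For the genome as a whole, gene layout was read from the GENCODE M21 annotation of GRCm38, another build than that of the peaks. Peaks were not placed on it, and only counts for whole chromosomes were used. It held 755 head-to-head combinations of protein-coding genes whose starts lay 0 to 1000 bases apart and 588 tail-to-tail combinations whose ends did, a ratio of 1.28. With genes of all types there were 1978 and 1026, a ratio of 1.93. The peaks were more one-sided, at 7.09 divergent for each convergent pair of nearest peaks and 8.44 over all combinations. Gaps between peak edges and gaps between annotated gene ends are different measures, however. Overlapping genes were not counted, and whether the genes are expressed in these cells was not considered. Over 20 chromosomes, without Y and the mitochondrial chromosome, Spearman's rho between divergent peak pairs and head-to-head coding genes was 0.71. Both counts also followed the number of peaks on the chromosome (0.67 and 0.92), so this is a description only. Chromosome 7, for example, had 59 head-to-head coding combinations and 8 divergent pairs, and chromosome 1 had 46 and 19; both were chosen after their values were seen.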

How the data were processed

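The submitters' processing notes name the tools STAR 2.6.1b and cutadapt 1.18 and the build mm9. Not given in the sources used here are the peak caller, any significance filter and how replicates were handled. The authors deposited 1 list for all 4 libraries, with each peak's position, strand and log2 fold (IP over input), all above 1. The scale was read from the values, since no header states it. Depth and replicate error are unknown.

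Starts were changed to count from 1. Opposite-strand peaks with 0 to 1000 bases between their nearest edges, or overlapping, were paired, and pairs of mutually nearest peaks were classed by order; no peak had tied partners. Chains joined same-strand peaks at up to 10000 bases. No chance test was made, since the list holds no values per library. The pairing procedure was tested on simulated peaks. Python 3.11.15, numpy 2.4.6, pandas 2.3.3 and scipy 1.17.1 were used.

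Pairs named were all overlapping ones; in each other class the 5 with the smallest gap, the 5 with the highest lower fold and the 3 with the largest difference; the 5 loci with the most peaks; and 2 combinations on each side of the limit. The set, rules and alternatives were chosen with earlier results of these data known. The gene lists planned for an mm9 annotation were not used.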

Additional observations from a re-analysis of the deposited data

How the results depend on the processing

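Of 42 alternative values, 30 stayed within the 95% interval of the value reported (counts, within 1.5 times), and 12 moved. The number of peaks was 421 at a limit of 500 bases, 1328 at 2000 bases and 112 when both peaks had to reach a log2 fold of 2. The share of divergent pairs was 79.8% at 2000 bases (382 pairs) and 90.0% with a minimum width of 20 bases, where pairing afresh gave 181 divergent and 16 convergent pairs. The median gap, 438 bases over all pairs, was 315 at 500 bases, 654 at 2000 bases, 531 at a log2 fold of at least 2 (47 pairs) and 478.5 between peak centres. The median log2 fold was 2.30 at that limit, which acts on the fold itself. The share of pair peaks at the end of their own stretch on the partner's side, 97.9% with stretches joined at 1000 bases and nearly fixed by the choice of nearest partners, was 98.9% at a log2 fold of at least 2 and 89% with stretches joined at 10000 bases. Leaving out chromosome 8, chosen after its values were seen, gave 719 peaks and 87.8% divergent pairs. No paired analysis was possible because the list has no values per library, so no replicate could be left out either. Apart from more or fewer peaks entering, the causes of these shifts were not tested. What depth limits could not be measured.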
